A study of Mus musculus with 12 samples.

Results

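The genes of mitochondrial oxidative phosphorylation were measured here in mouse primary keratinocytes that were transduced with deltaNp63alpha, the p63 isoform without the N-terminal transactivation domain. A probe was included where its only gene symbol began with Nduf, Uqcr or Atp5, with Sdh followed by a, b, c or d, or with Cox followed by a digit from 4 to 8. This gave 42 of the 9558 probes, for 41 of the 6774 named genes. By role they were 13 subunits of complex I, 2 of complex II, 2 of complex III, 11 of complex IV and 8 of complex V, with 4 assembly factors (Ndufaf3, Ndufaf7, Sdhaf1 and Sdhaf4) and the supercomplex factor Cox7a2l. Probes were included by name alone, but this gene set was chosen with earlier results of these data known.

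Every culture came from skin of C57Bl/6NCr mice and was harvested 41 h after transduction, at 7 to 8 days after plating. The compared groups differed in the adenovirus they carried, which encoded deltaNp63alpha or, in the controls, beta-galactosidase, so both had been exposed to a virus. Each pair of groups was compared at 0.05 mM calcium (low calcium) and at 0.12 mM calcium (high calcium), each for 24 h. Both RNAs of a calcium level were hybridised together on spotted cDNA arrays, 6 arrays a level. A forward array held deltaNp63alpha RNA in Cy5 and a reversed array held it in Cy3; each repeat had one of each, and these 2 arrays formed 1 dye-swap pair, which gave 3 pairs a level. The labels describe the arrays as technical repeats, so p-values here may reflect technical spread alone. Calcium levels were never hybridised against each other.

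An array gave values for 3366 to 9096 of the 9558 probes and for 13 to 41 of the 42 oxidative phosphorylation probes. The well filled pairs were repeat 1 of low calcium with repeats 1 and 2 of high calcium; the sparse ones were repeats 2 and 3 of low calcium with repeat 3 of high calcium. Precision is limited by how few arrays there are. A dye ratio carries no level, so the cell type could not be checked against its markers. Of the 13 keratinocyte markers looked for, 9 were on the array, with 4 tested in low and 7 in high calcium. The suprabasal keratin Krt10 was the 1 called, lower in high calcium at a log2 ratio of -1.57. None of the 23 markers of fibroblasts, melanocytes, leukocytes, endothelium and muscle on the array was called from pair values, though not all were tested. Tested in low and high calcium were 4 and 5 fibroblast, 2 and 2 melanocyte, 3 and 3 leukocyte, 3 and 3 endothelial, and 3 and 6 muscle markers. The muscle markers had log2 ratios from -0.94 (Acta1) to 0.49 (Des) in low calcium. In high calcium they ran from -0.92 (Actc1) to 0.15 (Myl2), so a marker not called was not always near 0. Of all rows tested, 0.409% and 1.39% were called, so 0 among so few markers carries little information. The part of other cells in the results was not tested.

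The direction of every signed value rests on a choice. The values were read as log2 of Cy5 over Cy3. Reversed arrays were therefore turned, and a pair was given the value (forward - reversed)/2, called the pair value. A positive pair value then means more RNA in the sample labelled deltaNp63alpha. The labels list deltaNp63alpha as channel 2 on every array, and a ratio of channel 2 over channel 1 would need no turning. The direction is therefore not settled by the labels. Before turning, forward and reversed arrays of a level correlated across rows at a median r of 0.44 in low and 0.26 in high calcium. Within a pair, r ranged from 0.21 to 0.71 in low and from 0.12 to 0.53 in high calcium. Over the 6699 rows with a value in all well filled pairs, r was weak. There it was 0.11 in low calcium repeat 1 and 0.10 and 0.12 in high calcium repeats 1 and 2. The Trp63 probe averaged -0.16 ± 0.25 (SE, n = 2 pairs, adjusted p = 0.919 in limma) in low calcium and -0.55 ± 0.25 (SE, n = 2 pairs, adjusted p = 0.446 in limma) in high calcium, so the overexpressed gene did not pass the test in either direction. Its pair values were below 0 in all well filled pairs: -0.78 in low calcium repeat 1 and -0.59 and -0.51 in high calcium repeats 1 and 2. The sparse low calcium repeat 2 was at 0.45. It is not known whether the probe covers the virus-borne copy.

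Oxidative phosphorylation passes electrons from NADH and succinate through complexes I and II to ubiquinone, then through complex III and cytochrome c to complex IV, where oxygen is reduced to water. Complexes I, III and IV pump protons out of the mitochondrial matrix, and complex V, the ATP synthase, makes ATP as protons flow back. The genes studied here are nuclear; the mitochondrial genome encodes further core subunits. In epidermis, mitochondrial respiration and its reactive oxygen species have been linked to keratinocyte differentiation.

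Nuclear oxidative phosphorylation genes often carry promoter sites for NRF1 and for the ETS factor GABP. These sites are shown for genes toward the ends of the ranking of the 19 genes tested in low calcium. Of the 41 genes, 36 matched a RefSeq promoter window of 250 bases before to 50 after a gene start (GRCm38.p6), in 38 windows. The core of the NRF1 site, which is the first run of capitals in the Sdhd and Atp5k stretches below with the sixth base left free, stood in 9 of the 38 windows (23.7%), against 4.6% of 32851 windows of all genes, both strands searched. The letters CCGGAAG, a core of ETS sites, stood in 11 (28.9%) against 8.86%. Both stood in 3 windows (7.89%), those of Sdhd, Atp5k and Cox6a1, against 0.892%. Below are the 150 bases before the start of Sdhd (chr9:50603850-50603999, minus strand), Atp5k (chr5:108434400-108434549, minus strand) and Ndufc2 (chr7:97399853-97400002, plus strand). Sdhd had the highest and Ndufc2 the lowest log2 ratio of the tested genes in low calcium, and Atp5k was positive in all of its pairs. Atp5md and Atp5a1, not tested there, had lone low calcium pairs below those of Ndufc2, at -0.82 and -0.66. These chosen examples cannot show a link between a match and a value. Capitals mark the matched letters on either strand.
Sdhd: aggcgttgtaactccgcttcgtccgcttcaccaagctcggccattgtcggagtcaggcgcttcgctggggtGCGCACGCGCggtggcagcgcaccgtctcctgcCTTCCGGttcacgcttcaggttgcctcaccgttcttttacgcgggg
Atp5k: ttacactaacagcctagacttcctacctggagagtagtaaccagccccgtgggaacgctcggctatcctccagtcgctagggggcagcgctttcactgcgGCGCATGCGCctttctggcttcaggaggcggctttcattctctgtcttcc
Ndufc2: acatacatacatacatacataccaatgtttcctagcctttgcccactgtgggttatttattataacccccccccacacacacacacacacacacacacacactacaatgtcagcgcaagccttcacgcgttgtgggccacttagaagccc
The Sdhd stretch holds an NRF1 match and a reverse-strand ETS match, the Atp5k stretch holds an NRF1 match (its ETS match lies after the gene start), and the Ndufc2 stretch holds neither. A match is a description of the letters and not of binding. In low calcium the tested genes with either match had a median log2 ratio of 0.04 (7 of 16 genes tested, from -0.10 to 0.36). Those with neither had a median of -0.12 (10 of 20 tested, from -0.49 to 0.07), so the ranges overlapped. In high calcium these medians were 0.08 (12 tested, from -0.51 to 0.20) and -0.01 (20 tested, from -0.29 to 0.27), and Atp5md, the lowest of all, has an ETS match. With the deposited signs kept, the medians with a match and with neither were 0.47 and 0.40 in low calcium and 0.31 and 0.21 in high calcium.

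The first comparison asked whether deltaNp63alpha changed these genes in low calcium. No gene was called there. The 19 genes with at least 2 pairs were tested with limma, and 0 passed a Benjamini-Hochberg adjusted p of 0.05, against 0.409% of the 4646 rows tested (0.0215% called higher and 0.387% lower). At an unadjusted p under 0.05 the number was 1, Ndufc2, against 9.45% of all rows. Log2 ratios, the means over pairs, ran from -0.49 (Ndufc2) to 0.36 (Sdhd), with 7 above and 12 below 0. Their median was -0.03, beside 0.02 for all rows. The 95% confidence interval of each of the 19 genes lay within 1 log2 unit of 0, that is, within 2-fold; the lowest bound was -0.89 (Ndufc2) and the highest 0.80 (Sdhd). The other 22 genes, among them Atp5a1, Atp5md, Cox5b and Ndufb4, lacked a second pair in low calcium and were not tested.

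Among the complex I genes 5 were tested in low calcium, 1 above and 4 below 0, with a median of -0.20. Ndufc2, an accessory subunit, had deposited values of -0.22 and 0.53 on the forward arrays of repeats 1 and 2 and of 0.98, 1.30 and 0.76 on the reversed arrays of repeats 1, 2 and 3. The reversed arrays all lay above the forward ones. The pair values were -0.60 and -0.39, and the log2 ratio was -0.49 ± 0.18 (SE, n = 2 pairs, adjusted p = 0.377 in limma). Ndufb11 and Ndufa3, also accessory subunits, had log2 ratios of -0.27 ± 0.19 (SE, n = 2 pairs, adjusted p = 0.746 in limma) and -0.20 ± 0.18 (SE, n = 2 pairs, adjusted p = 0.824 in limma), with both pairs of each below 0. Ndufs7, an iron-sulfur core subunit, had opposite signs in its pairs, 0.15 and -0.44. Ndufv1, the core subunit that binds NADH, was the highest of complex I at 0.02, from pairs at 0.02, -0.06 and 0.11.

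Sdhd, a membrane anchor of complex II, had forward values of 0.11 and -0.06 and reversed values of -0.15 and -1.24 in low calcium repeats 1 and 2. Its pair values were 0.13 and 0.59, both above 0, and the sparse repeat 2 gave the larger. The log2 ratio was 0.36 ± 0.20 (SE, n = 2 pairs, adjusted p = 0.619 in limma). Sdhb, the iron-sulfur subunit of the same complex, was at -0.01 from pairs at -0.06 and 0.05. In complex III, Uqcr11, a small subunit, was at 0.13 and Uqcrfs1, the Rieske iron-sulfur protein, at -0.10.

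In complex IV, cytochrome c oxidase, 2 of 6 tested genes lay above 0 in low calcium and 4 below, with a median of -0.03. Cox4i1, the common form of subunit 4, was the highest, with pairs at 0.09, 0.02 and 0.14 and a log2 ratio of 0.08 ± 0.14 (SE, n = 3 pairs, adjusted p = 0.927 in limma). Cox5a was the lowest at -0.21, from pairs at -0.36, 0.16 and -0.43, so its pairs differed in sign. Cox6c was at -0.19 ± 0.19 (SE, n = 2 pairs, adjusted p = 0.832 in limma) and Cox6a1 at 0.04 ± 0.21 (SE, n = 2 pairs, adjusted p = 0.978 in limma). In complex V 4 genes were tested, from -0.10 (Atp5l, subunit g) to 0.13 (Atp5k, subunit e), with a median of 0.02. The Atp5k log2 ratio was 0.13 ± 0.18 (SE, n = 2 pairs, adjusted p = 0.906 in limma), from pairs at 0.11 and 0.15. Atp5b, the catalytic beta subunit, was at 0.07, from pairs at 0.07, -0.06 and 0.21.

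**Figure D1:**
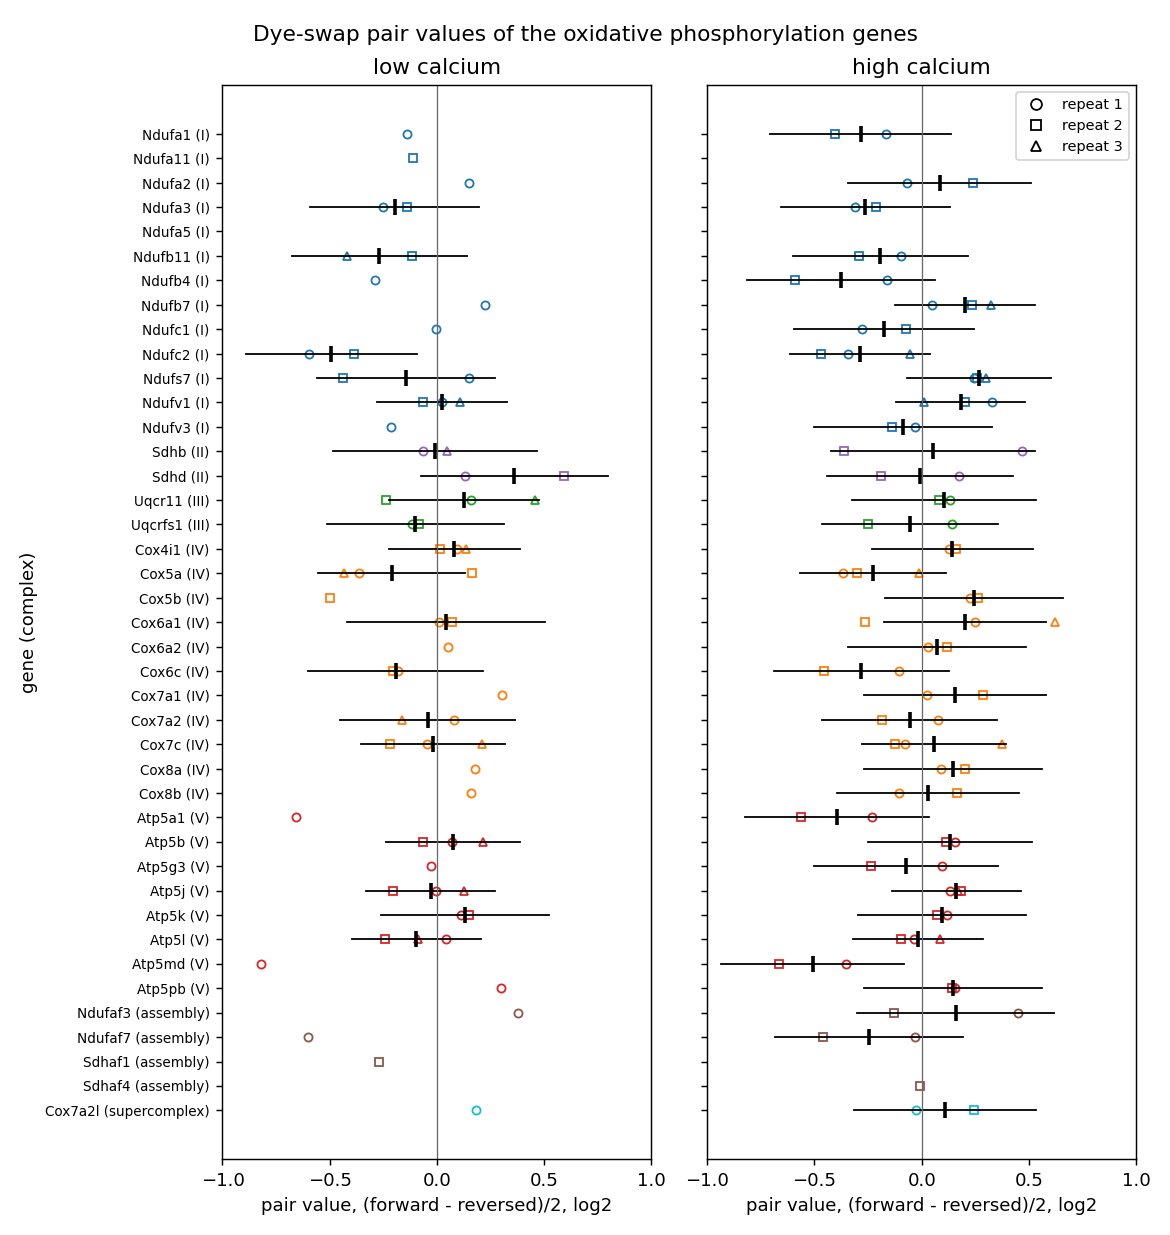
Pair values, (forward - reversed)/2 on the log2 scale, of the 41 oxidative phosphorylation genes in low (left) and high calcium (right). Open symbols are the dye-swap pairs, vertical ticks the log2 ratio and horizontal lines the 95% interval of limma, drawn where at least 2 pairs had a value; intervals exclude 0 only for Ndufc2 in low calcium and Atp5md in high calcium, before adjustment for the number of rows.

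The second comparison was that of high calcium, where 37 of the 41 genes were tested. Again no gene was called: 0 of 37 passed, against 1.39% of 7263 rows (0.551% higher and 0.84% lower). At an unadjusted p under 0.05 the number was 1, Atp5md, against 11.6%. Log2 ratios ran from -0.51 (Atp5md) to 0.27 (Ndufs7), with 20 above and 17 below 0, and their median was 0.05, beside 0.01 for all rows. The 95% interval of each of the 37 genes lay within 1 log2 unit of 0, with bounds reaching -0.94 (Atp5md) and 0.66 (Cox5b). The 4 genes not tested at either level were Ndufa5, Ndufa11, Sdhaf1 and Sdhaf4, and Ndufa5 had no complete pair.

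Complex V held the lowest gene of high calcium. Atp5md, a small membrane subunit of the ATP synthase, had forward values of -0.28 and -0.13 and reversed values of 0.42 and 1.20 in high calcium repeats 1 and 2, and -0.54 and 1.10 in low calcium repeat 1. All 3 forward values lay below 0 and all 3 reversed values above it, so the sign changed with the dyes in each repeat. The log2 ratio in high calcium was -0.51 ± 0.19 (SE, n = 2 pairs, adjusted p = 0.297 in limma), and the lone low calcium pair was at -0.82. Atp5a1, the alpha subunit of the catalytic part, had forward values of -0.12 and -0.42 and reversed values of 0.34 and 0.71. The log2 ratio of Atp5a1 was -0.40 ± 0.19 (SE, n = 2 pairs, adjusted p = 0.498 in limma), and its lone low calcium pair was at -0.66. Its partner Atp5b, which forms the catalytic part with it, was at 0.13 in high calcium. The other complex V genes lay between -0.07 (Atp5g3, a gene for the membrane ring subunit c) and 0.16 (Atp5j, coupling factor 6). In all, 4 complex V genes lay above and 4 below 0, with a median of 0.04.

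Of the 11 complex I genes tested in high calcium, 4 lay above and 7 below 0, with a median of -0.18. Ndufb4, an accessory subunit, was the lowest at -0.38 ± 0.20 (SE, n = 2 pairs, adjusted p = 0.550 in limma), from pairs at -0.16 and -0.59. Ndufc2 was at -0.29 ± 0.15 (SE, n = 3 pairs, adjusted p = 0.529 in limma), from pairs at -0.34, -0.47 and, in the sparse repeat 3, -0.06. It was below 0 in all 5 of its pairs over both levels. With a high calcium pair left out in turn its log2 ratio was -0.26, -0.20 or -0.41. Ndufs7 was the highest at 0.27 ± 0.16 (SE, n = 3 pairs, adjusted p = 0.598 in limma), from pairs at 0.24, 0.26 and 0.30. Ndufb7 was at 0.20 ± 0.15 (SE, n = 3 pairs, adjusted p = 0.706 in limma) and Ndufv1 at 0.18 ± 0.14 (SE, n = 3 pairs, adjusted p = 0.722 in limma), with all pairs of both above 0. The Ndufv1 pairs were 0.33, 0.20 and 0.01, and without repeat 1 its log2 ratio was 0.11. Complex I genes thus lay on both sides of 0 within 1 complex.

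All 11 complex IV genes were tested in high calcium, 8 above and 3 below 0, with a median of 0.07. Cox5b, a subunit on the matrix side, was the highest at 0.25 ± 0.19 (SE, n = 2 pairs, adjusted p = 0.721 in limma), from pairs at 0.23 and 0.26. Its single low calcium pair, in the sparse repeat 2, was at -0.50. Cox6c was the lowest at -0.28, from pairs at -0.11 and -0.46. Complexes II and III gave values near 0, from -0.06 (Uqcrfs1) to 0.11 (Uqcr11). Sdhb had pairs of opposite sign, 0.47 and -0.36, and Sdhd too, 0.18 and -0.19. Of the assembly factors, Ndufaf3 was at 0.16 and Ndufaf7, a methyltransferase needed for complex I assembly, at -0.25; Cox7a2l was at 0.11.

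The third comparison asked whether the response differed between calcium levels. The high minus low difference was tested for 19 genes and 0 were called, against 0% of 4209 rows; 0 of the 19 had an unadjusted p under 0.05, against 2.54% of all rows. The differences ran from -0.37 (Sdhd) to 0.41 (Ndufs7), with a median of 0.06. The levels differed in filling, with 1 well filled pair in low and 2 in high calcium. A difference between levels therefore cannot be fully told apart from one between well filled and sparse pairs. In low calcium Ndufs7 had a well filled pair at 0.15 and a sparse one at -0.44. Sdhd had a well filled pair at 0.13 and a sparse one at 0.59. The interval of the Ndufs7 difference, -0.12 to 0.95, allows nearly a full log2 unit. Cox5a had nearly the same log2 ratio at both levels, -0.21 and -0.23, and the interval of its difference was -0.50 to 0.47.

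In the 3 well filled pairs, which span both calcium levels, 35 of the genes had a pair value each time. Of these, 12 (34.3%) were negative in all 3 pairs, against 23.7% of 6699 rows, and 11 (31.4%) were positive in all 3, against 31.2%. The 12 included 6 complex I subunits (Ndufa1, Ndufa3, Ndufb4, Ndufc1, Ndufc2 and Ndufv3), the assembly factor Ndufaf7, Cox5a, Cox6c, Cox7c, Atp5a1 and Atp5md. The 11 included Ndufb7, Ndufs7, Ndufv1, Uqcr11, Cox4i1, Cox6a2, Cox7a1, Cox8a, Atp5b, Atp5k and Atp5pb. Each set thus held subunits of complexes I, IV and V. Of Cox7c, subunit 7c of complex IV, the array held 2 probes, and these disagreed in sign in each well filled pair. One was at -0.19, -0.18 and -0.35 in repeat 1 of low calcium and in repeats 1 and 2 of high calcium, and the other at 0.09, 0.03 and 0.10. The negative sign of the Cox7c mean therefore came from the first probe.

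Subunits with a form typical of heart and skeletal muscle were on the array beside the form of other tissues, and each pair of forms is given side by side for high calcium. Cox6a1 was at 0.20 and its muscle form Cox6a2 at 0.07. Cox7a2 was at -0.06 and its muscle form Cox7a1 at 0.16, while Cox8a was at 0.15 and its muscle form Cox8b at 0.03. Cross-hybridisation between related cDNAs was not tested.

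The deposited values showed a second pattern, which the pair value removes. Before any turning, the median of the oxidative phosphorylation genes lay above 0 on all 12 arrays, from 0.14 (high calcium, reversed, repeat 1) to 1.05 (high calcium, forward, repeat 3). Between 64.9% and 88.2% of the genes with a value were above 0 on an array, where the arrays themselves are centred on 0. Atp5l and Cox7c were above 0 on 12 of 12 arrays, Cox4i1 and Cox6a1 on 11 of 11 and Cox7a2 on 10 of 10. Such rows were common at large: of the 1381 rows with a value on all 12 arrays, 20.1% were above 0 on 11 or more. Of these genes only 5 had a value on all 12 arrays, and 3 of them were above 0 on 11 or more. Ndufa11, an accessory subunit of complex I, was the opposite case, below 0 on all 7 of its arrays. With arrays centred on the rows that had a value on all 12, the median of the genes was between -0.12 (high calcium, forward, repeat 2) and 0.98, and that array was the only one below 0. Sparse arrays had the higher medians, with low calcium reversed repeat 2 at 0.98 and high calcium forward repeat 3 at 1.05. They also had a wider spread, with an SD of 1.24 on the former against 0.55 on low calcium reversed repeat 1. Of all rows, 17.2% and 17.5% lay above the median of the genes on these 2 low calcium arrays. On high calcium forward repeats 3 and 1 the shares were 13.5% and 29.7%. The part of array filling in this was not tested.

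**Figure D2:**
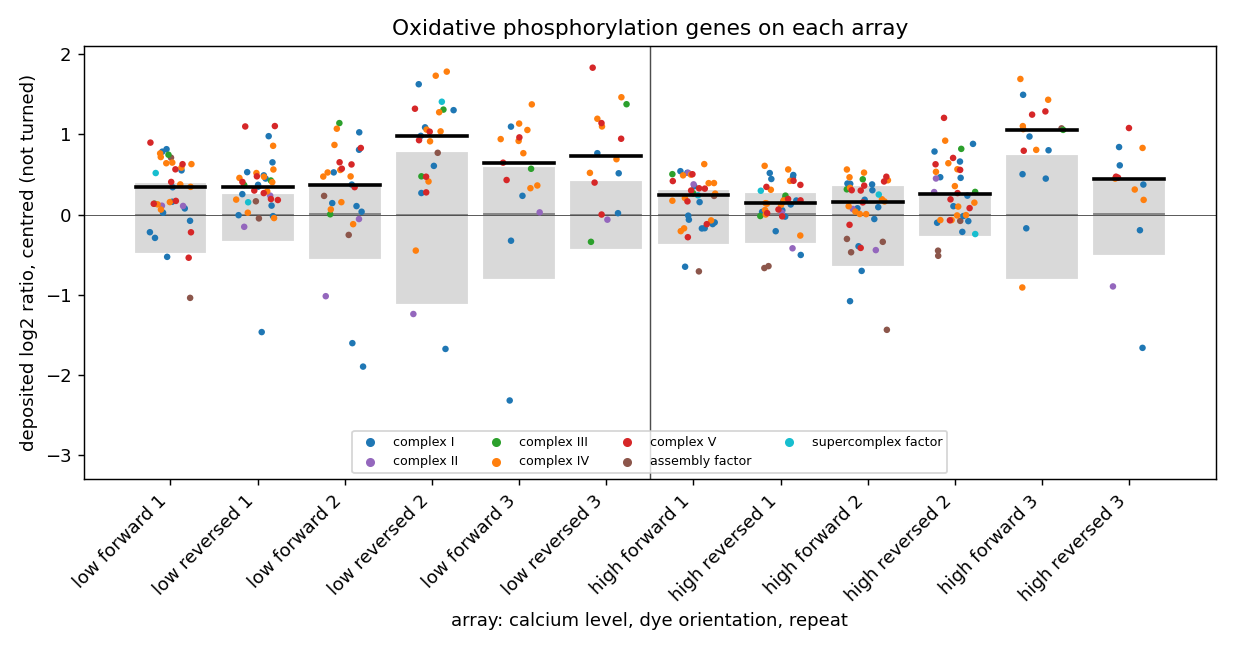
Deposited log2 ratios of the oxidative phosphorylation genes on each array, centred on the array's median and not turned. Dots are genes coloured by complex, thick lines their median and grey boxes the middle 50% of all rows; all 12 medians of these genes lie above 0, between 0.14 and 1.05, in both dye orientations.

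The shared value of a pair, (forward + reversed)/2, holds this pattern. It would be the deltaNp63alpha response if the deposited ratios were already turned, and a signal that follows the dye or the channel if they were not. These readings cannot be told apart by the labels. The shared median of the genes was 0.34, 0.52 and 0.52 in low calcium repeats 1, 2 and 3 and 0.17, 0.25 and 0.69 in high calcium repeats 1, 2 and 3, while that of all rows lay between -0.02 and 0.06. Pair value medians of the same genes were 0.02, -0.13 and 0.11 in low calcium and 0.03, -0.11 and 0.17 in high calcium. The genes thus stood higher in the shared value than in the pair value in each of the 6 pairs.

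**Figure D3:**
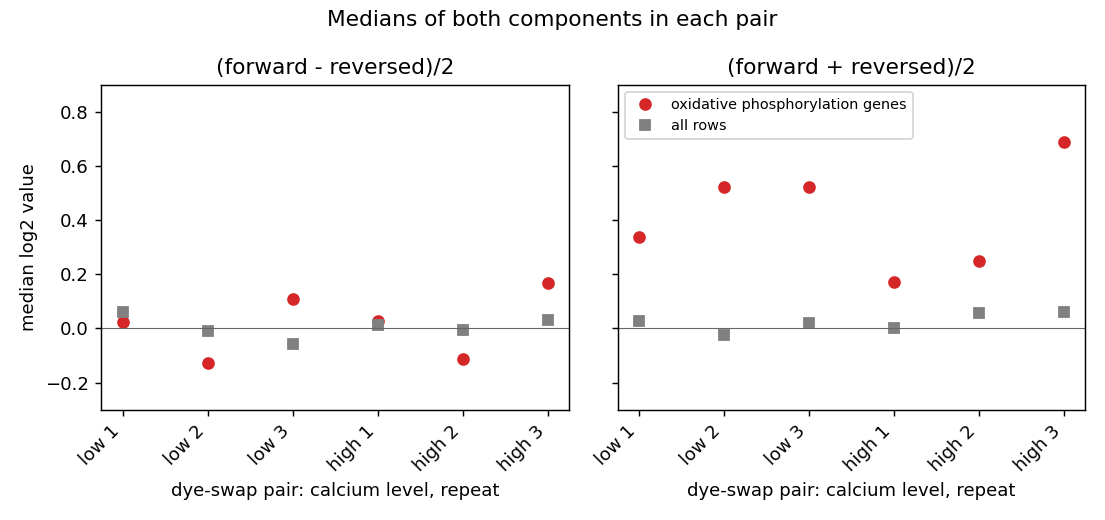
Median pair value (left) and median shared value (right), in log2 units, of the oxidative phosphorylation genes (circles) and of all rows (squares) with both arrays in each dye-swap pair. The shared medians of the genes lie between 0.17 and 0.69 and above those of all rows in each pair, while the pair value medians lie on both sides of 0.

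Both arrays of a pair were above 0 in 26 of 35 genes (74.3%) in low calcium repeat 1, against 30.8% of all complete rows. In high calcium repeats 1 and 2 the shares were 19 of 37 (51.4%) against 31.7% and 19 of 38 (50%) against 27.6%. The sparse pairs gave 17 of 20 (85%) against 40.4%, 7 of 11 (63.6%) against 35.8% and 8 of 9 (88.9%) against 38.8%. The genes were above 0 in both orientations more often than the rows at large in each of the 6 pairs.

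**Figure D4:**
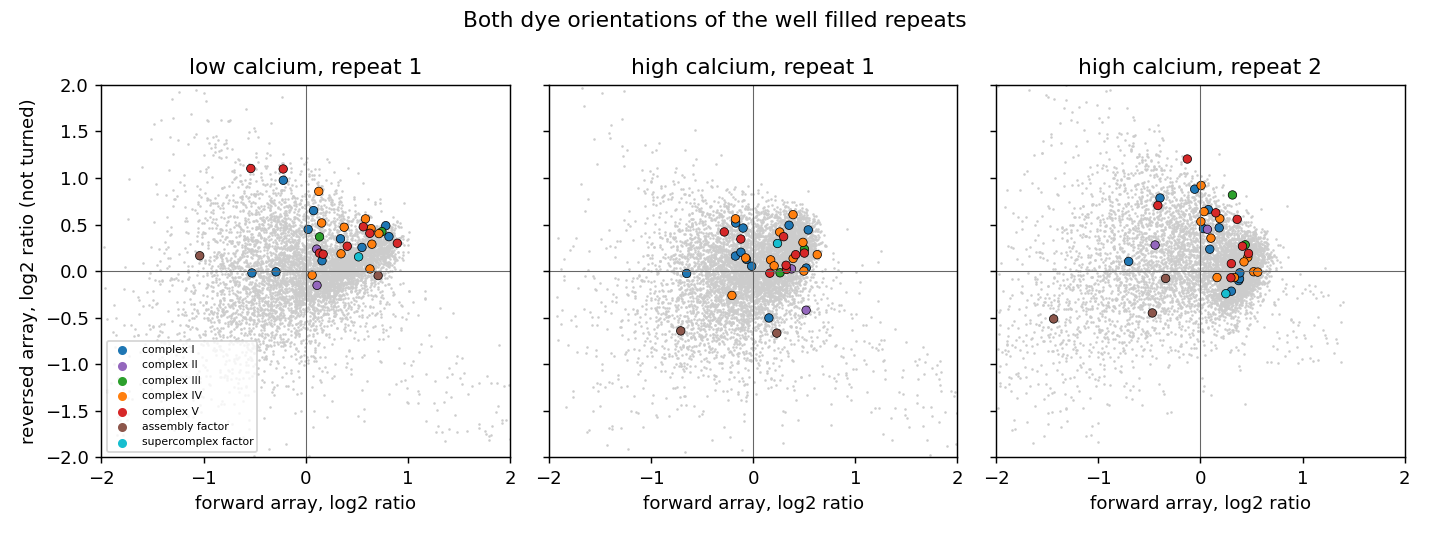
Forward against reversed array, deposited log2 ratios not turned, in the 3 well filled pairs. Grey dots are rows with a value in all 3 pairs and coloured dots the oxidative phosphorylation genes; axes end at 2 log2 units on either side, which leaves 61, 32 and 98 of 6699 rows outside. In low calcium repeat 1, 26 of 35 of these genes lie in the upper right quadrant.

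With the deposited signs kept, 3 of 19 genes were called in low calcium, all higher in the sample labelled deltaNp63alpha under that reading, where 16.4% of 4646 rows were called in either direction and 6.56% as higher. Cox4i1 had forward values of 0.64, 1.07 and 1.37 and reversed values of 0.46, 1.04 and 1.10 in repeats 1, 2 and 3. The orientations overlapped, and repeat 1 was the lowest in both. Its log2 ratio under kept signs was 0.94 ± 0.17 (SE, n = 3 pairs, adjusted p = 0.0260 in limma). Atp5l had forward values of 0.56, 0.83 and 0.96 and reversed values of 0.48, 1.32 and 1.14, and a log2 ratio of 0.88 ± 0.19 (SE, n = 3 pairs, adjusted p = 0.0347 in limma). Cox7c was at 0.62 ± 0.14 (SE, n = 3 pairs, adjusted p = 0.0365 in limma). In these 3 genes both dye orientations read positive, and under the main reading the same genes were at 0.08, -0.10 and -0.02.

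Under kept signs the median was 0.47 in low calcium, with 18 of 19 genes above 0 against 51.1% of all rows; Sdhd, at -0.33, was the one below. In high calcium the median was 0.25, with 30 of 37 above 0 against 53.9% of all rows. There 0 of 37 genes were called by limma, against 0% of 7263 rows, and 6 had an unadjusted p under 0.05, against 17.5% of all rows. In low calcium 12 of 19 had one, against 42.2% of all rows. Cell type markers were also called in low calcium under kept signs: 2 of 4 tested keratinocyte markers (median 0.75), 1 of 3 endothelial markers (median -0.03) and 1 of 3 muscle markers (median -0.86), with 0 of the fibroblast, melanocyte and leukocyte markers. Their part in the kept-sign values was not tested. By complex, the kept-sign medians in low calcium were 0.34 for complex I, -0.13 for II, 0.53 for III, 0.66 for IV and 0.49 for V. Complex IV, which had a median of -0.03 under the main reading, stood highest under this one.

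Each orientation was also fitted alone. On forward arrays 0 of 29 genes were called in low calcium, against 0.51% of rows. On the reversed arrays, turned, 3 of 25 were called, all lower, where 6.18% of 5340 rows were called in either direction and 2.23% as lower. These were Atp5a1 (log2 -1.46, n = 2 arrays, adjusted p = 0.0370 in limma), Ndufc2 (-1.01, n = 3 arrays, adjusted p = 0.0296 in limma) and Atp5l (-0.98, n = 3 arrays, adjusted p = 0.0453 in limma). On forward arrays the same 3 genes were at 0.21, 0.15 and 0.78, so none was lower there.

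Other genes of mitochondrial and energy metabolism were set beside them in 6 lists with 90 genes on the array. Of these 57 were tested in low calcium and 82 in high calcium, and 0 were called at either level, where 0.409% and 1.39% of all rows were. The 32 mitochondrial ribosomal protein genes had medians of -0.02 (22 tested) and 0.04 (30 tested), with the high calcium values from -0.47 (Mrps12) to 0.26 (Mrpl27). The citric acid cycle and pyruvate dehydrogenase genes were at -0.01 and 0.04, and the electron carriers and other assembly factors at -0.07 and 0.01. In the latter list Cox10, which makes heme for complex IV, was the lowest in high calcium at -0.54. The mitochondrial carrier and import genes were at -0.27 and -0.02, with the ATP and ADP exchanger Slc25a4 the lowest at both levels, -0.41 and -0.44. The transcription regulators were at 0.15 and -0.06; Ppargc1a, a coactivator of mitochondrial genes, was tested in high calcium and was at -0.31. The glycolysis genes were at -0.08 and -0.03, and Pgk1, phosphoglycerate kinase, was the lowest in high calcium at -0.58.

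Under kept signs the lists differed from each other more, and so did all rows, with an SD of 0.62 in low calcium against 0.27 for pair values. In low calcium the median was 0.52 for glycolysis (6 of 7 above 0) and 0.22 for the mitochondrial ribosomal genes (18 of 22), beside 0.47 for oxidative phosphorylation. It was 0.08 for carriers and import, 0.05 for the citric acid cycle, -0.08 for the electron carriers and -0.10 for the transcription regulators. The glycolysis genes thus lay nearest to the oxidative phosphorylation genes in this value in low calcium. In high calcium the medians were closer, at 0.25 for oxidative phosphorylation, 0.21 for glycolysis, 0.20 for the citric acid cycle and 0.16 for carriers and import. There the mitochondrial ribosomal genes were at 0.13, the electron carriers at 0.04 and the transcription regulators at -0.18.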

How the data were processed

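Keratinocyte RNA was labelled with a Genisphere kit, as the labels' protocols state, and hybridised to 12 two-colour spotted cDNA arrays. The deposited values were ratios of the dyes, read as log2 from their range (-7.88 to 4.598), with array medians between -0.0005 and 0.0005, so they were already centred. The log base and the numerator are not stated, nor are the scanner, the filter on spots, the correction for background or the normalisation (not given in the sources used here).

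Of 9558 probes, 7457 had 1 gene symbol in the platform annotation, 481 had several and 1620 were unlisted; 7368 symbols were updated by gene ID (GRCm38.p6), and all 42 oxidative phosphorylation probes matched. Probes of a gene were averaged, which gave 8875 rows. Arrays were centred on their median, and the pair value was (forward - reversed)/2, missing unless both arrays had a value. All 6 pairs were fitted together by lmFit and eBayes of limma 3.58.1 in R 4.3.3 (prior df 9.55). Rows with at least 2 pairs at a level were tested there, with Benjamini-Hochberg adjustment over all of them; adjusted p under 0.05 was called. The procedure was tested on simulated data.

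The genes and lists were chosen with earlier results of these data known. Full statistics were given for called genes and, at each level, for the 4 largest positive and 4 largest negative log2 ratios with the same sign in every pair; the highest and lowest of each complex and list were named. Other genes and examples were chosen after their values were seen. Alternatives covered orientation, scaling, centring, variance model, incomplete pairs, probe averaging, filters, blocks and left-out pairs.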

Additional observations from a re-analysis of the deposited data

How the results depend on the processing

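No oxidative phosphorylation gene was called in either level or for the difference under any alternative to the pair value other than those of orientation: scaling, centring, variance model, 1 array kept, 1 row per probe, 1 level alone, complete rows (5 of these genes left) and array set as a block. The array sets were the well filled pairs and the sparse pairs. Some of these alternatives called few rows of any kind. Scaling called 0 of 4646 rows in low and 1 of 7263 in high calcium. The other centring, the other variance model and 1 array kept called 0 rows at both levels. A count of 0 there says nothing particular about these genes. For the difference no alternative called more than 2 rows in all. With each pair left out in turn the number of these genes called stayed at 0 in low calcium, in high calcium and for the difference. Calls among all rows then ran from 6 of 2526 to 51 of 4646 in low calcium and from 33 of 2291 to 151 of 7263 in high calcium. Medians of these genes ran from -0.10 (16 tested) to 0.06 (10 tested) in low calcium. In high calcium they ran from -0.01 (37 tested) to 0.15 (9 tested). The left-out fits therefore did not all cover the same genes. With deposited signs kept 3 of these genes were called in low calcium, and with reversed arrays alone 3. The medians with signs kept, forward alone and reversed alone were 0.47, 0.39 and -0.62 in low calcium and 0.25, 0.22 and -0.23 in high calcium; by construction these hold the shared value, and its cause was not tested. Signs turned as follows. With signs kept, high calcium: Atp5a1 0.13, Atp5md 0.30, Ndufb4 0.12, Ndufc2 0.38, Ndufv1 -0.0581; low calcium: Cox6c 0.70, Ndufa3 0.34, Ndufb11 0.29, Ndufc2 0.65, Sdhd -0.33. Forward alone: Ndufc2 0.0922 in high and 0.15 in low calcium, and in low calcium Cox6c 0.69, Ndufa3 0.14, Ndufb11 0.0235. Reversed alone, high calcium: Cox5b -0.0848, Ndufb7 -0.40, Ndufs7 -0.0633; low calcium: Atp5k -0.54, Cox4i1 -0.86, Cox6a1 -0.49. With 1 array kept, low calcium: Atp5k -0.23, Cox6c 0.22. The main fit did not pair samples by repeat number. Low against high deviations of the same number correlated at -0.03, -0.11 and 0.20 over 1381 rows. Spread between arrays can hide a pairing, so these correlations do not settle whether one existed. With the repeat number as a replicate block 0 of these genes were called, against 45 of 3086 rows in low and 85 of 3103 in high calcium. The medians of these genes were -0.06 (14 tested) in low and 0.17 (15 tested) in high calcium. A gene with 2 pairs at a level was not tested there when one of them was left out, since the minimum of 2 pairs was kept.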
